A study of Mus musculus with 6 samples.

Results

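The cilia and flagella associated protein (Cfap) genes were taken as all genes whose symbol in the array's annotation is Cfap followed by a number, and 31 such genes were found among 19938 named genes. For 29 the symbol ends with the number, and 2 carry further letters (Cfap20dc and Cfap97d1). The 31 genes were read by 40 probe sets, 25 genes by 1 probe set each and 6 by more. A gene with several was read from its brightest one, by the mean of all arrays. RNA of the ependymal layer, a ciliated sheet facing the brain ventricles, had been put on 6 Affymetrix arrays. These were FoxJ1 null brains of postnatal day 1, day 7 and day 14 and wildtype brains of the same days, each on a single array. Both genotypes carried the FoxJ1-EGFP reporter, in which a fluorescent protein marks cells where the Foxj1 promoter is active, and the EGFP-positive domains were taken by laser capture. The labels give neither the strain, nor the null allele, nor how many animals went on each array. No genotype and age had more than 1 array. The p-values for genotype thus measure how the difference varied over the 3 ages, moderated over all genes. They do not measure a spread between animals of 1 age.

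Cfap is a naming scheme for proteins of the axoneme, the microtubule core of cilia and sperm flagella, many of them first found in the green alga Chlamydomonas. In a motile cilium, doublet microtubules surround a central pair. Dynein arms on the doublets drive sliding, radial spokes and the central apparatus regulate it, tethers hold the inner dynein arms, and proteins inside the doublet wall stabilise it. Foxj1 encodes a forkhead transcription factor that switches on genes of motile cilia, and ependymal cells bear tufts of such cilia that move cerebrospinal fluid. A few Cfap names belong to proteins of basal bodies or primary cilia, which most brain cells have.

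Levels below are log2 values, given in the order of days 1, 7 and 14, and differences are FoxJ1 null minus wildtype. The SD of a difference is over the 3 ages (n = 3 pairs of arrays), and adjusted p is from limma over all 19938 genes, with a threshold of 0.05. Array medians lay between 7.72 and 7.81. Foxj1 itself read 6.89, 6.95 and 6.90 in null and 7.68, 7.72 and 7.24 in wildtype (adjusted p = 0.0573), and the position of its probe set relative to the deleted part is unknown here. Against the title, which names male mice, Xist read 12.35 on the null day 7 array and 12.40 on the wildtype day 1 array, against 5.37 to 5.83 on the others. The Y-linked Eif2s3y read 4.61 and 4.53 on these arrays, against 10.33 to 10.72 on the others, and the Y-linked Kdm5d and Uty were low on the same arrays. Both arrays thus read as female. The genotypes differed in sex within the day 1 pair and, in the other direction, within the day 7 pair. Members whose call changed without these 2 arrays are named below. That fit also took age as linear, since 4 arrays leave no residual with age as a factor. All 12 ependymal markers listed were measured, and 4 of them were called lower in null (Ak7, Tmem212, Dynlrb2 and Ccdc153), beside 0.667% of all genes. The list holds Foxj1 itself, and Ak7 is also counted among the radial spoke and central pair genes below. It is thus not an independent measure of ependymal cells. The summed linear level of the 12 markers was 9528, 9048 and 7815 in null and 12382, 10439 and 7759 in wildtype. It was thus lower in null at day 1 and day 7 and slightly higher at day 14, and the ranges over all ages overlapped. The median difference of the 12 was -0.51 (-0.67, -0.54 and -0.37 by age), and 11 of 12 were below 0 (54.8% of all genes). In 8 of 12 every null array read below every wildtype array (4.39% of all genes). The part of the ependymal markers in the Cfap differences was not tested. In such bulk tissue, fewer cells of a type and less RNA per cell cannot be told apart.

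In the captured FoxJ1 null tissue 13 of the 31 Cfap genes were lower and 0 were higher. The 13 were 1.51-fold to 3.69-fold lower. Their share, 41.9%, stood beside 0.667% of all genes called lower and 0.00502% called higher (0.672% in either direction). Each of the 13 was lower in the null array at every age, but the call itself was drawn from these differences. Of all 31 members 22 were lower at every age, beside 15.9% of all genes. No member passed as higher, and none had an unadjusted p under 0.05 in that direction; 22 had one in the lower direction, beside 4.59% of all genes (5.92% in either direction). The 18 other members had mean differences from -0.64 to 0.11. The median over all 31 was -0.48, beside -0.01 over all genes, with -0.64 for day 1, -0.47 for day 7 and -0.65 for day 14. The mean difference was below 0 in 27 members (54.8% of all genes). At least 2-fold lower were 10 members, among 59 such genes in all (0.296%). In 22 members every null array read below every wildtype array (71.0%, against 4.39% of all genes), and 9 of these were not called. In 0 members every null array read above every wildtype array (1.76% of all genes).

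**Figure D1:**
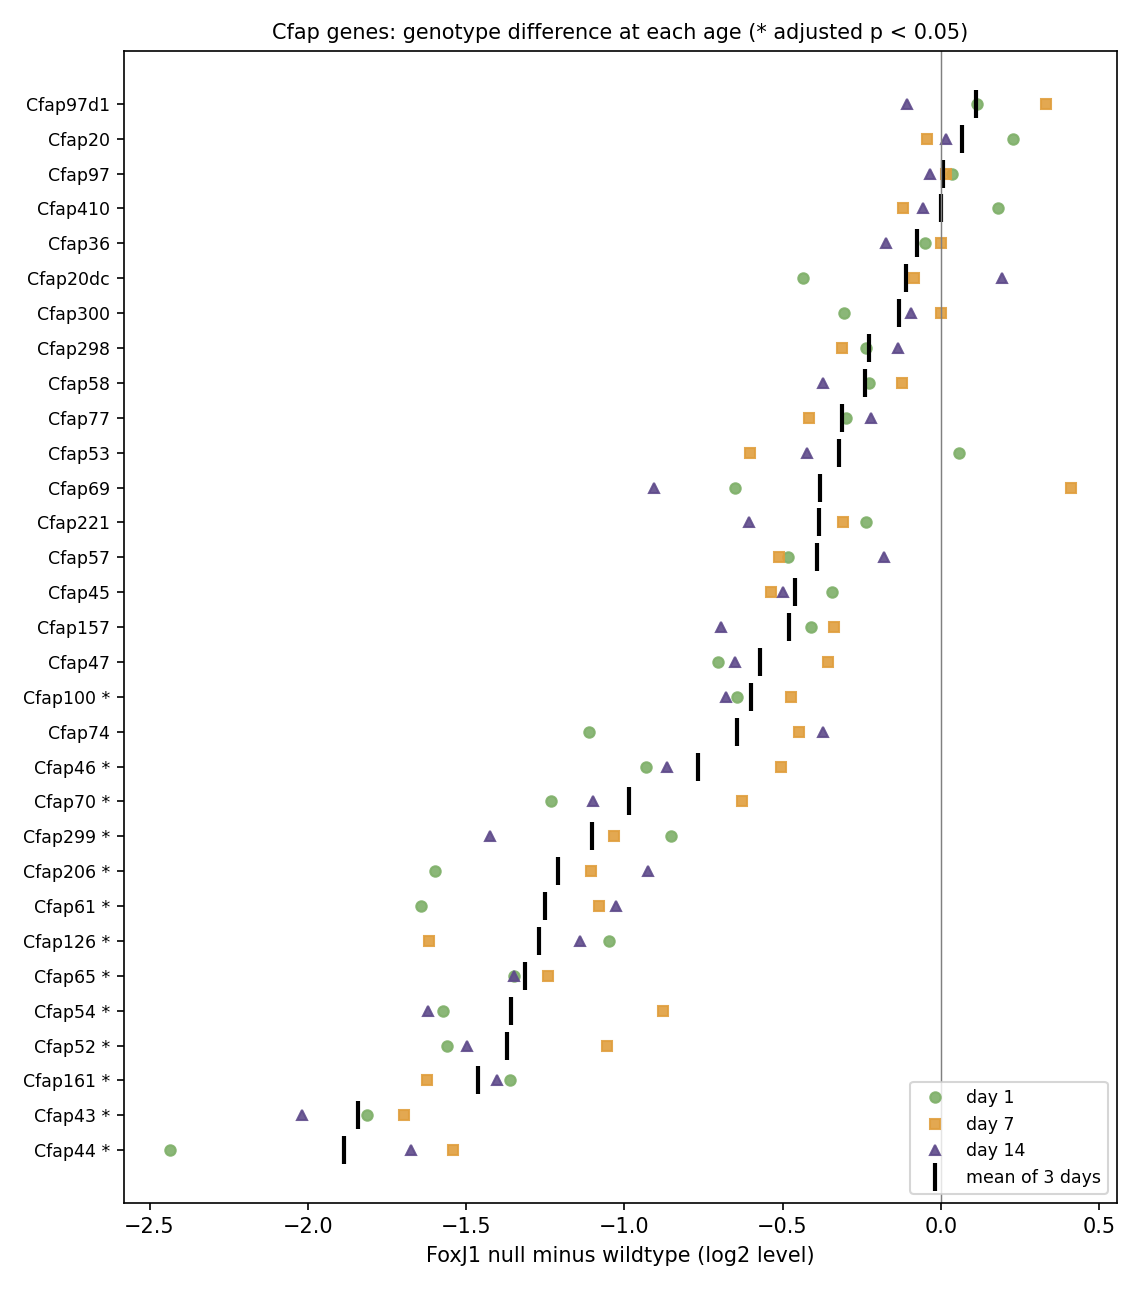
Difference between FoxJ1 null and wildtype (log2 level, x axis) for each of the 31 Cfap genes (rows), with 1 symbol per age and a black bar at the mean of the 3 ages; an asterisk marks the 13 genes called by limma. The called genes lie left of 0 at every age, while Cfap20, Cfap97, Cfap97d1 and Cfap410 scatter around 0.

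The greatest differences were in Cfap43 and Cfap44, partners in the tether complex that links the inner dynein arm motor domains to the doublet. Cfap44 read 6.95, 7.55 and 7.50 in null and 9.38, 9.09 and 9.17 in wildtype. That is a difference of -1.88 ± 0.48, or 3.69-fold (adjusted p = 0.000513). Cfap43 read 7.59, 7.72 and 7.58 in null and 9.40, 9.41 and 9.59 in wildtype (-1.84 ± 0.16, 3.59-fold, adjusted p = 7.15e-05). The highest null value and the lowest wildtype value were 1.54 apart for Cfap44 and 1.68 apart for Cfap43. For Cfap44 the null array of day 1 was the lowest of the 6, whereas the null arrays of Cfap43 lay within a narrow band.

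The windows around the annotated transcription starts of Cfap43, Cfap44 and Cfap161 are shown because these members had the 3 largest decreases, and that of Cfap20 because its groups overlapped. Each runs from 250 bases before the start to 50 after it (RefSeq, GRCm38.p6, 5′ to 3′ on the gene's strand). Capitals mark the forkhead core TGTTTA or TGTTTG and GTTNCC, a half-site of the X-box bound by RFX factors, the other transcription factor family known for ciliary genes. Both strands were searched, so their reverse complements are marked too.
Cfap43, chr19:47837312-47837611, minus strand: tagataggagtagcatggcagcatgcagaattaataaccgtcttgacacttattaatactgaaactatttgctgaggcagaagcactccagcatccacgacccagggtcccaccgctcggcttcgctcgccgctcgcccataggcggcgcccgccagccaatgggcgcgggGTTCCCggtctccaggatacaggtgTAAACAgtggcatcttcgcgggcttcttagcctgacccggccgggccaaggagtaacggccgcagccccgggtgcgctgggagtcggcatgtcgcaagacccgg
Cfap44, chr16:44394549-44394848, plus strand: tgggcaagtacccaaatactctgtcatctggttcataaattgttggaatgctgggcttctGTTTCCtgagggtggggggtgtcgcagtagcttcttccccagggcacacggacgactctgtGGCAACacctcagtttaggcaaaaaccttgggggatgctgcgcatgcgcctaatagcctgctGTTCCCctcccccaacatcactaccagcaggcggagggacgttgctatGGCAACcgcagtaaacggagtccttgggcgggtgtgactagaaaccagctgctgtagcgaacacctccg
Cfap161, chr7:83794790-83795089, minus strand: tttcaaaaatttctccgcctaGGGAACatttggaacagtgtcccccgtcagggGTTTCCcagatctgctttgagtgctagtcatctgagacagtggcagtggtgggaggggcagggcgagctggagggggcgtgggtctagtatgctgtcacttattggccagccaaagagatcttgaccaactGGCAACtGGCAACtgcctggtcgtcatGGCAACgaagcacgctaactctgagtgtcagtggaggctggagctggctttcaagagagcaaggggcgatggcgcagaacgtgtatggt
Cfap20, chr8:95434820-95435119, minus strand: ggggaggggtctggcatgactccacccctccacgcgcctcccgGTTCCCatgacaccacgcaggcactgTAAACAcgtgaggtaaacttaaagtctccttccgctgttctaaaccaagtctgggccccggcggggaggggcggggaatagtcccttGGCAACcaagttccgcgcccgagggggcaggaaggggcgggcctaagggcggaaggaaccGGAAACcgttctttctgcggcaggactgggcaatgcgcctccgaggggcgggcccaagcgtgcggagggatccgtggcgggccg
The Cfap44 window holds 4 half-site matches and the Cfap161 window 5, with no forkhead match in either. Cfap43 has 1 match of each kind, and Cfap20 has 1 forkhead match and 3 half-sites.

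Of the 31 members, 25 had a window in the RefSeq table. The half-site GTTNCC stood in 19 of them (76%), beside 48.8% of 27025 genes in the table. It was in 9 of 10 called members with a window and 10 of 15 others. A forkhead core, TGTTTA or TGTTTG, was in 9 of 25 members (36%), beside 31.1% of all genes, and in 3 of 10 called members and 6 of 15 others. A full X-box, made of this half-site and its reverse complement 2 bases apart, was in 2 members (Cfap20dc and Cfap298, neither called) and in 0.529% of all genes. A looser X-box, with 1 more letter free in each of its 2 parts, was in 5 members (20%, 2.16% of all genes), of which Cfap126 and Cfap206 were called. The longer half-site GTTGCCA was in 7 members (28%, 5.02% of all genes), 2 of them called. Several windows for 1 gene counted as a match if any held the letters. A match is a description of the sequence and not a binding site.

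Members known from radial spokes and the inner arm were lower in 3 of 4 cases. Cfap61, a spoke-associated protein, read 5.52, 6.46 and 6.31 in null and 7.17, 7.54 and 7.34 in wildtype (-1.25 ± 0.34, 2.38-fold, adjusted p = 0.0019). Cfap206, which docks a radial spoke on the doublet, read 6.41, 6.89 and 6.81 in null and 8.01, 7.99 and 7.73 in wildtype. Its difference was -1.21 ± 0.35 (adjusted p = 0.0024). In both genes the null array of day 1 was the lowest of all. Cfap100, an inner arm linker in Chlamydomonas, read 6.42, 6.58 and 6.69 in null and 7.07, 7.05 and 7.36 in wildtype (-0.60 ± 0.11, adjusted p = 0.0336). This call was the weakest of the 13, with the groups 0.36 apart, and was lost whenever 1 age was left out (adjusted p 0.0521 to 0.107) and with linear age on the 4 arrays of low Xist (-0.58, adjusted p = 0.297). Cfap57, which takes part in inner dynein arm assembly in Chlamydomonas, had a difference of -0.39 ± 0.18 that did not pass (adjusted p = 0.335), although its groups did not overlap.

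Among 8 members of the central apparatus, the pair of microtubules and projections at the core of the axoneme, 4 were lower and 4 did not pass. Cfap54 read 8.11, 8.84 and 8.28 in null and 9.68, 9.71 and 9.90 in wildtype (-1.36 ± 0.41, 2.56-fold, adjusted p = 0.00205). Cfap65 was the steadiest of the called members, with 7.76, 7.83 and 7.74 in null against 9.10, 9.07 and 9.09 in wildtype. Its difference of -1.31 ± 0.06 (2.48-fold, adjusted p = 0.000251) varied less over the ages than that of any other called member. Cfap70, which is needed for sperm flagella in humans, read 6.46, 7.07 and 6.70 in null and 7.69, 7.70 and 7.80 in wildtype (-0.99 ± 0.32, adjusted p = 0.00653). Cfap46, which builds a central pair projection with Cfap54, read 7.44, 7.51 and 7.65 in null and 8.37, 8.02 and 8.52 in wildtype (-0.77 ± 0.23, adjusted p = 0.0153). Cfap46 was not called in the fit without the 2 high-Xist arrays and with linear age (-0.63, adjusted p = 0.353), and was called with all arrays and linear age (adjusted p = 0.0299).

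The other central apparatus members were Cfap74 (-0.64 ± 0.41, adjusted p = 0.147), the X-linked Cfap47 (-0.57 ± 0.19, adjusted p = 0.0652), Cfap221 (-0.38 ± 0.20, adjusted p = 0.381) and Cfap69 (-0.38 ± 0.70, adjusted p = 0.975). Cfap69, which is needed for sperm flagella in mice, changed sign between ages. It read 7.66, 8.76 and 7.93 in null and 8.31, 8.35 and 8.83 in wildtype, so the null array of day 7 lay above its wildtype partner and the other null arrays below theirs. Without the day 7 arrays its difference was -0.78 (adjusted p = 0.0299). Cfap47 was called in 4 alternative settings, with adjusted p from 0.0445 to 0.0471.

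Members of the doublet's inner wall were split, with 3 of 7 lower. Cfap161 read 6.74, 6.66 and 6.64 in null and 8.10, 8.29 and 8.04 in wildtype (-1.46 ± 0.14, 2.75-fold, adjusted p = 0.000176). Cfap52 read 7.34, 7.68 and 7.41 in null and 8.90, 8.73 and 8.90 in wildtype (-1.37 ± 0.27, 2.59-fold, adjusted p = 0.000659). Both lay inside narrow bands within each genotype. Cfap126, also called Flattop and known for basal body positioning in multiciliated cells, read 6.03, 5.67 and 5.92 in null and 7.08, 7.29 and 7.06 in wildtype (-1.27 ± 0.30, adjusted p = 0.00137).

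The 4 others of the inner wall did not pass. Cfap45 read 7.36, 7.18 and 7.25 in null and 7.70, 7.71 and 7.75 in wildtype, groups that did not overlap (-0.46 ± 0.10, adjusted p = 0.133). Cfap77 had -0.31 ± 0.10 (adjusted p = 0.529) and Cfap53, a gene of left-right patterning, -0.32 ± 0.34 (adjusted p = 0.791). Cfap20, which sits at the inner junction of the doublet, read 10.08, 9.85 and 10.02 in null and 9.85, 9.89 and 10.01 in wildtype. Its groups overlapped fully, with a difference of 0.07 and a 95% interval of -0.17 to 0.30.

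**Figure D2:**
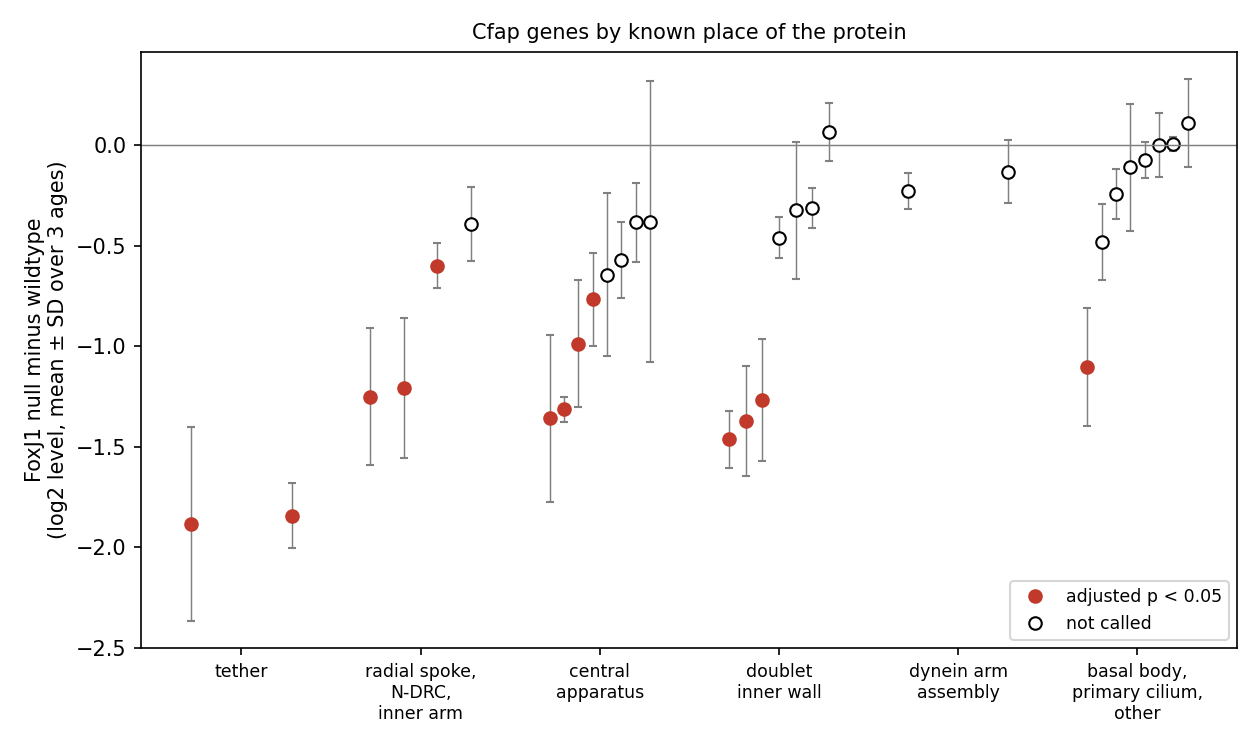
Mean difference between FoxJ1 null and wildtype with its SD over the 3 ages (log2 level, y axis) for the 31 Cfap genes. They are grouped by the known place of the protein (x axis), and filled points passed adjusted p 0.05. Cfap20dc and Cfap97d1, with no assigned place, stand in the last group. Both tether genes lie near -1.9, the spoke, central apparatus and inner wall groups spread from -1.46 to 0.07, and the dynein assembly pair lies at -0.23 and -0.13.

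No dynein arm assembly member passed, and 1 of 8 members of the last group did. This group holds members known from basal bodies, primary cilia or elsewhere, and Cfap20dc and Cfap97d1, to which no place was assigned. Cfap298 and Cfap300, which help to assemble dynein arms before they enter the cilium, had differences of -0.23 ± 0.09 (adjusted p = 0.838) and -0.13 ± 0.16 (adjusted p = 1.00). Cfap36, a partner of the ciliary GTPase ARL3, read 10.79, 11.07 and 11.02 in null and 10.84, 11.07 and 11.20 in wildtype (-0.07, interval -0.30 to 0.15). For Cfap97 the difference was 0.01 (interval -0.22 to 0.23) and for Cfap410, a basal body gene mutated in human retinal dystrophy, 0.00 (interval -0.24 to 0.24). Of 8 members in this last group only Cfap299 was called. It read 5.50, 5.31 and 4.90 in null and 6.35, 6.34 and 6.32 in wildtype (-1.10 ± 0.29, 2.15-fold, adjusted p = 0.0026). Cfap299, Cfap61, Cfap100 and Cfap126 were the called members in the lowest tertile of all genes by mean level. Cfap157, a basal body gene needed in mouse sperm, had -0.48 ± 0.19 (adjusted p = 0.156), with groups that did not overlap. Cfap58, a gene of the sperm flagellum, had -0.24 ± 0.12 (adjusted p = 0.825). All 18 members that were not called had 95% intervals that stayed above -1, so a 2-fold decrease lay outside each interval.

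**Figure D3:**
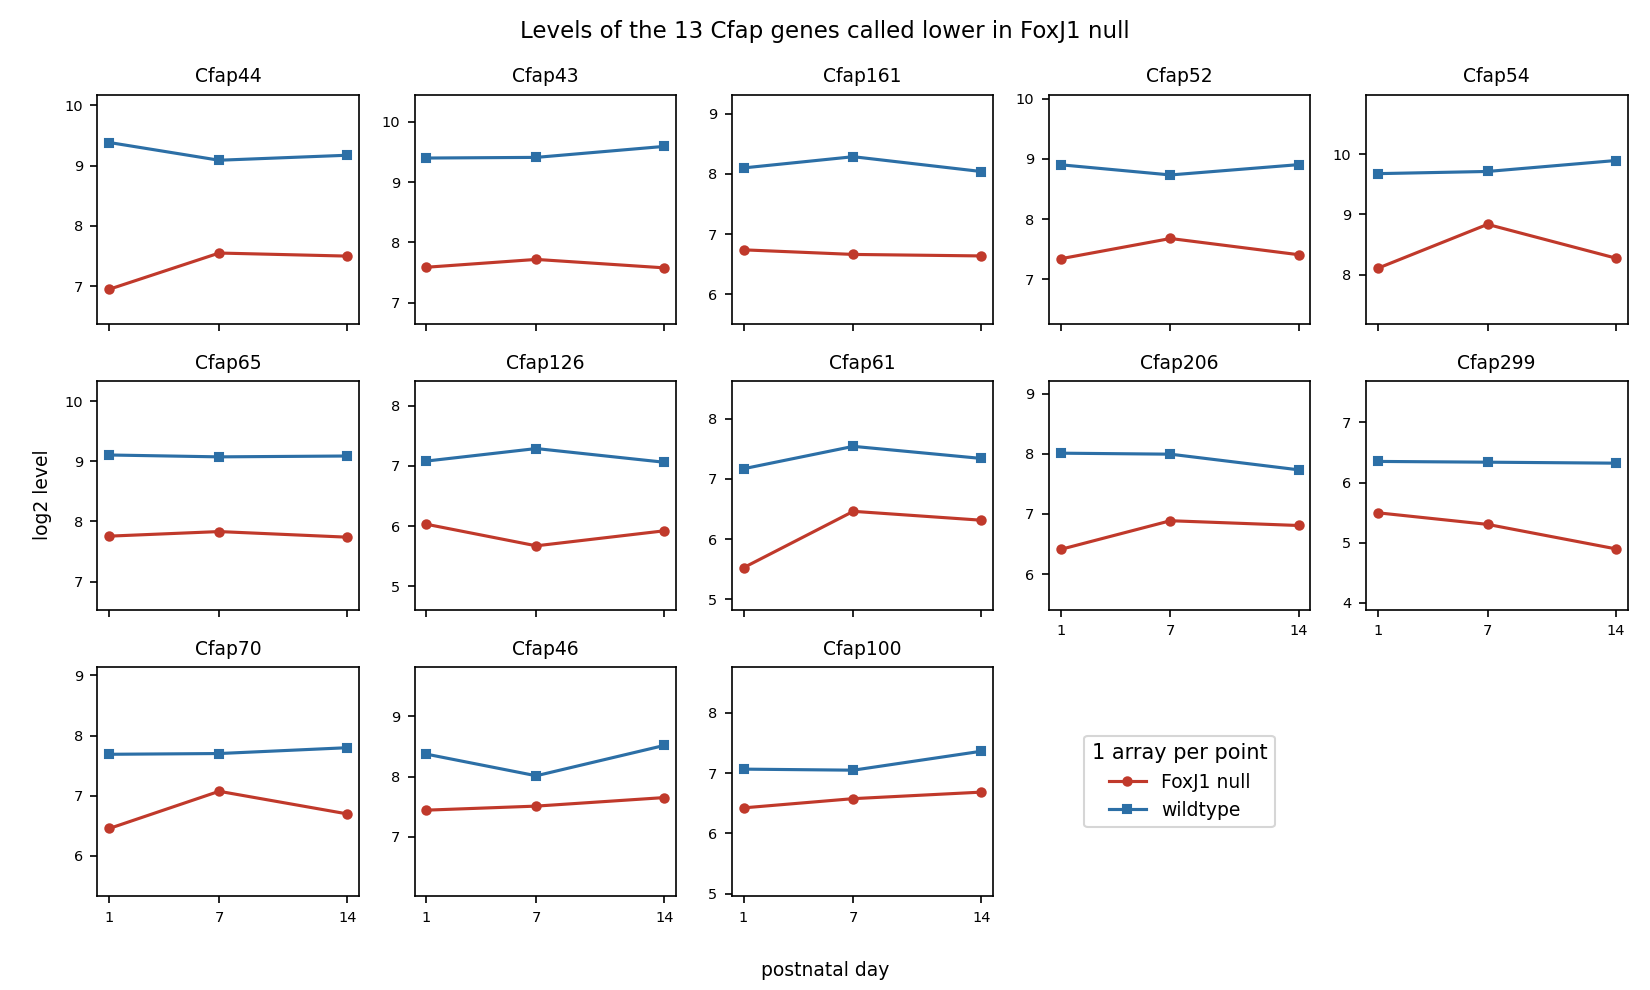
Log2 level (y axis) at postnatal days 1, 7 and 14 (x axis) of the 13 Cfap genes called lower, with FoxJ1 null as circles and wildtype as squares, 1 array per point; each panel spans the same number of log2 units. The null line runs below the wildtype line in every panel, and the highest null and lowest wildtype values lie 0.36 apart in Cfap46 and Cfap100 and 1.68 apart in Cfap43.

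Of the 6 members with more than 1 probe set, all pointed to lower levels on each probe set. The 5 probe sets of Cfap43 differed by -1.84, -1.74, -2.19, -2.58 and -2.71 in order of falling mean level, and each passed when every probe set was tested alone. Cfap54 (-1.36 and -1.25) and Cfap61 (-1.25 and -0.87) passed on both. For Cfap46 the dimmer probe set did not pass (-0.55, adjusted p = 0.0961). For Cfap57 and Cfap74 the dimmer one passed (-0.63, adjusted p = 0.0298, and -0.65, adjusted p = 0.0136), while the brighter one used above did not. A further probe set shared by Cfap43 and Itprip was not used.

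**Figure D4:**
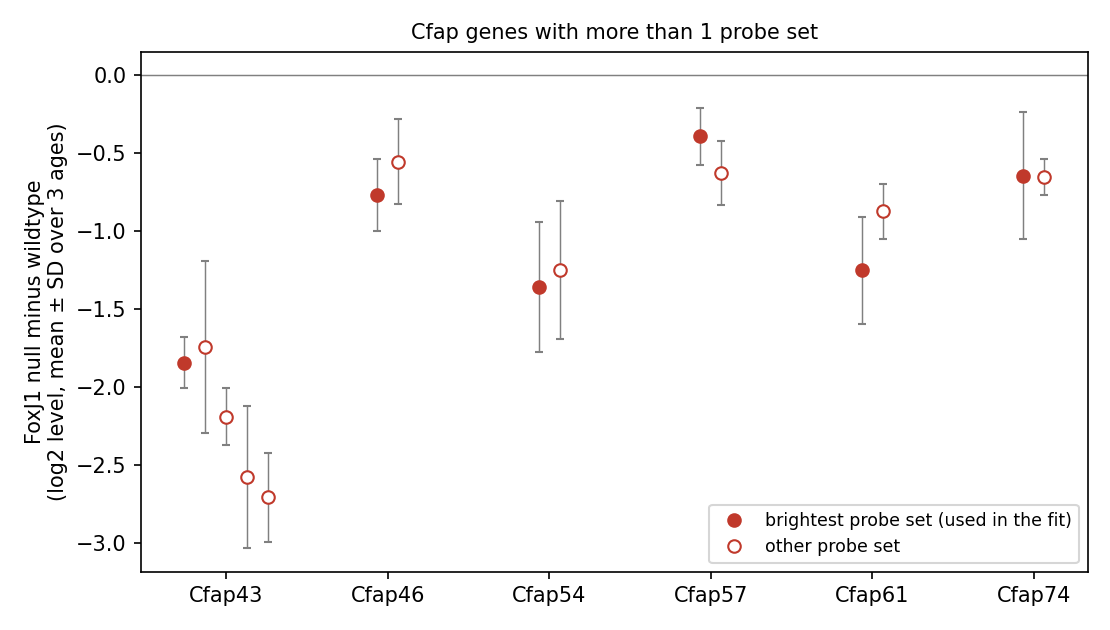
Mean difference between FoxJ1 null and wildtype with its SD over the 3 ages (log2 level, y axis) for each probe set of the 6 Cfap genes with several (x axis), ordered by mean level from left to right; filled points are the brightest probe sets. All 15 points lie below 0, and in Cfap43 they run from -1.74 to -2.71.

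A further 3 genes carry a Cfap name only as a RefSeq synonym and stayed outside the count. Maats1 (CFAP91), a spoke-associated protein, read 6.22, 6.25 and 6.25 in null and 7.75, 7.89 and 7.62 in wildtype (-1.52 ± 0.14, 2.86-fold, adjusted p = 0.000152). Wdr66 (CFAP251), its partner in the same complex, was lower by 1.63-fold (-0.70 ± 0.17, adjusted p = 0.0171). Ppip5k2 (CFAP160), an inositol phosphate kinase, had 0.09 ± 0.27. In the authors' deposited table of 52 selected probe sets, Wdr66 was present and no probe set of the 31 members was.

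Genes for other parts of the axoneme were also called lower. The counts below stand beside 0.667% of all genes called lower. Of 17 axonemal dynein chains 8 were lower, with a median difference of -0.60, and Dnah12 led them (-2.26 ± 0.09). Of 14 radial spoke and central pair genes without a Cfap name 8 were lower (median -0.78), led by Ak7 (-1.99 ± 0.29) and Rsph4a (-1.93 ± 0.18). The nexin-dynein regulatory complex and ruler had 5 of 12 lower (median -0.56) and the tektins and other inner wall proteins 6 of 16 (median -0.33). Of 20 genes of intraflagellar transport, the cargo system that motile and primary cilia share, 0 passed and the median was -0.21. The mean difference was below 0 in 19 of the 20 (54.8% of all genes). In 4 of them every null array read below every wildtype array (4.39% of all genes). None of these lists had a member called higher, and the differences between lists were not tested.

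Of 11 measured markers of the choroid plexus, the neighbouring epithelium that secretes cerebrospinal fluid, 3 were lower in null and 8 did not pass. Among all genes 0.667% were called lower. The mean difference was below 0 in all 11 (54.8% of all genes), with a median of -0.61. In 8 of 11 every null array read below every wildtype array (4.39% of all genes). The summed linear level of all 11 was 10139 to 12206 in null and 25233 to 25883 in wildtype. Ttr, the thyroid hormone carrier that makes up most of that sum, was lower by 2.47-fold (-1.31 ± 0.19, adjusted p = 0.000491). Day 1 had a marker median of -0.91, day 7 one of -0.19 and day 14 one of -0.77. Of the 13 called Cfap genes, 8 had their smallest decrease at day 7, 3 at day 1 and 2 at day 14. The null array of day 7 was 1 of the 2 high-Xist arrays, and the share over all genes was not counted. The part of choroid plexus tissue in the Cfap result was not tested. No marker of astrocytes and radial glia (10), neuroblasts and neurons (10), oligodendrocytes (9), microglia (10) or endothelial and mural cells (9) was called between the genotypes. Neuron markers were bright on every array, with Stmn2 at 12.33 to 13.52, so the captured RNA was not of ependymal cells alone. The microglia median was 0.67 at day 14, with a summed linear level of 6547 in null and 4093 in wildtype. The astrocyte and radial glia sum was 18531, 24191 and 31320 in null and 27411, 32791 and 33922 in wildtype, lower in null at each age. The median difference of these markers was -0.49, -0.33 and 0.09 by age. Sums of neuroblast and neuron markers were lower in null at each age too (42793, 33339 and 32672 against 44644, 45679 and 42083). The same held for oligodendrocyte markers (3565, 5057 and 16063 against 4002, 6000 and 21414). The part of these markers in the Cfap result was not tested.

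Few of these genes were called between ages. Between days 14 and 1, over both genotypes, 1 of 31 members was higher and 0 were lower, beside 7.5% of all genes higher and 6.29% lower (13.8% in either direction). At an unadjusted p under 0.05 there were 4 members, beside 27.2% of all genes. The wildtype levels of the 13 called genes at day 14 differed from day 1 by -0.28 to 0.30, and the null levels by -0.60 to 0.79. In the fit their age differences ran from -0.31 to 0.48, with 95% intervals between -0.66 and 0.85. The 1 gene called was Cfap74, a central pair projection protein. It read 6.89, 7.47 and 7.88 in null and 7.9998, 7.91 and 8.25 in wildtype, and was higher at day 14 by 0.62 (95% interval 0.22 to 1.02, adjusted p = 0.048). The null array of day 1 was the lowest of the 6, and without it the difference was 0.27 (adjusted p = 0.449), so the call rests on that array. It was also lost without the null array of day 14 (0.42, adjusted p = 0.361) and with genotype left out of the model (adjusted p = 0.284).

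Next in size were Cfap61 (0.48, adjusted p = 0.0862), Cfap53 (-0.46, adjusted p = 0.0984), Cfap69 (0.39, adjusted p = 0.386), Cfap299 (-0.31, adjusted p = 0.227) and Cfap36 (0.29, adjusted p = 0.164). Without the wildtype array of day 1, 1 of the 2 high-Xist arrays, 3 members were called higher at day 14 and 1 lower. Cfap61 (0.78, adjusted p = 0.00695) and Cfap53 (-0.74, adjusted p = 0.00973) were among them.

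**Figure D5:**
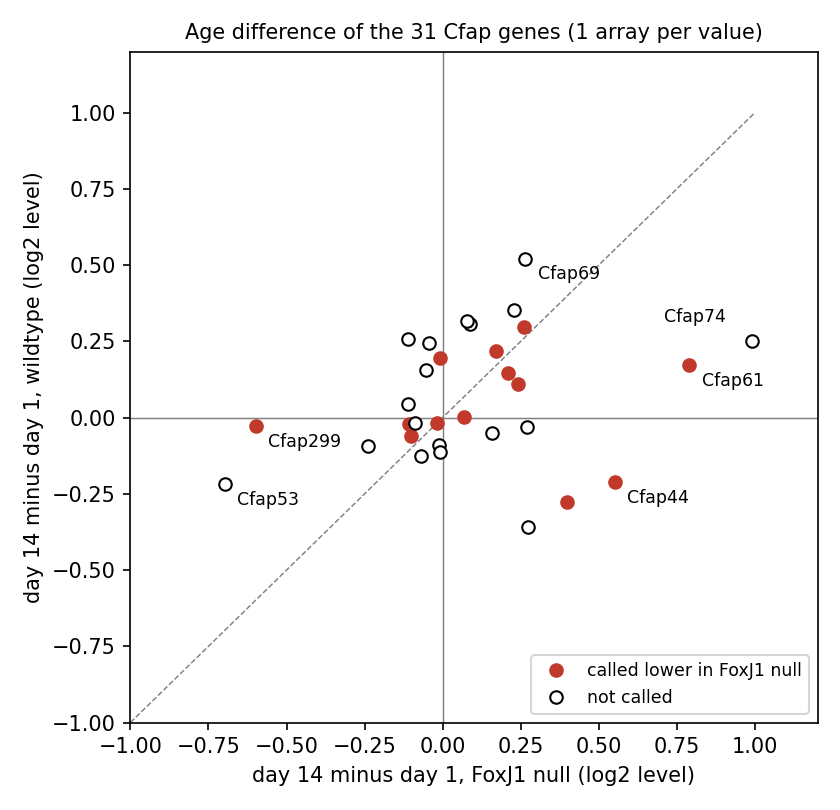
Day 14 minus day 1 (log2 level) of the 31 Cfap genes in FoxJ1 null (x axis) and wildtype (y axis), each value from 1 array per day; filled points are genes called lower in null and the dashed line marks equal differences. Most genes lie near the centre, Cfap74 and Cfap61 stand to the right with null differences of 0.99 and 0.79, and Cfap53 and Cfap299 to the left with -0.70 and -0.60.

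The genotype difference was next compared over time, as the difference between the slopes of null and wildtype on postnatal day, expressed over the 13 days from day 1 to day 14. No member passed, nor did any of the 19938 genes (0%), and 2 members had an unadjusted p under 0.05, beside 2.99% of all genes. The largest values were in Cfap44 (0.73, 95% interval -0.03 to 1.49), Cfap74 (0.72, interval 0.07 to 1.38), Cfap206 (0.66, interval -0.04 to 1.36), Cfap20dc (0.63, interval 0.01 to 1.24), Cfap61 (0.60, interval -0.37 to 1.57) and Cfap299 (-0.57, interval -1.17 to 0.03). A positive value means that the null level rose relative to wildtype. All 6 had an adjusted p of 1.00. For Cfap44, Cfap74, Cfap206, Cfap20dc and Cfap61 the null array of day 1 was the lowest of the 6, and for Cfap299 the null array of day 14 was.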

How the data were processed

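Values came from a deposited table of log2 levels (35557 probe sets, 6 arrays), made with RMA per the submitters' processing notes; the software version and genome build are not given in the sources used here. The authors' second deposited table holds linear intensity for 52 probe sets, whose log2 differs from the first table by at most 4.86e-06. Per the labels' protocols, RNA came from laser-captured frozen tissue and was amplified before labelling.

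Probe sets with 1 gene symbol (21789) were kept, 1621 had several and 12147 none, and the brightest per gene gave 19938 genes. No dim gene was filtered out. Tests were run with limma 3.58.1 in R 4.3.3, with genotype and age as a factor (2 residual and 7.51 prior degrees of freedom), and for slopes with genotype, day and their product. Adjusted p is by Benjamini-Hochberg over all genes, 2-sided. The fit thus pairs the arrays by age, from the labels. Summaries and plots used Python 3.11.15. Values were also simulated for 19938 genes with 200 changed. Noise was independent and normal, with each gene's own residual SD from the genotype fit, around its mean level over all arrays. The rates below hold for this setting only. On these values the genotype fit called 52.5% of changes of 1 log2 unit, 93% of changes of 2 and 0% of changes of 0.5. The age fit called 43.5%, 86% and 0% of these sizes, and the slope fit 0%, 27.5% and 0%.

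The members, lists, motifs, role groups and alternatives were chosen with earlier results of these data known. By the naming rule, members that passed were given with values, with up to 6 others as examples and up to 4 genes of each other list; further members that did not pass were added so that all roles are accounted for. Alternatives changed 1 choice, except that the fit without the 2 high-Xist arrays also took age as linear: scaling, filters on dim genes, probe sets, the eBayes prior, age or genotype in the model, ages or arrays left out, and Xist. Xist as a covariate and left-out arrays for the age comparison, and left-out arrays for slopes, were added after seeing the data.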

Additional observations from a re-analysis of the deposited data

How the results depend on the processing

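The count of 13 Cfap genes called lower stayed at 9 to 14 in 13 of 15 alternatives, with 0 called higher in each. It was 5 after removal of genes under the median level, which kept 11 members and left out 20, and 7 with no replicate block (age left out). In these settings 16 and 45 of all genes were lower; 61 were without the lowest tertile, which left out 9 members, and 64 in a fit with linear age that dropped both high-Xist arrays, where 11 members remained called, all among the 13. With age left out, Cfap46, Cfap54, Cfap61, Cfap70, Cfap100 and Cfap299 were lost. When 1 age was left out, the count ran from 12 to 14 and the median from -0.66 to -0.50. Over these omissions the differences of Cfap20 (-0.0133 to 0.124), Cfap20dc (-0.260 to 0.0544), Cfap97 (-0.00896 to 0.0265) and Cfap410 (-0.0875 to 0.0632) changed sign, each without day 1, as Cfap97 (-0.13) and Cfap97d1 (-0.00201) did without the 2 high-Xist arrays; none of these was called. Cfap74 was called lower with the mean of its probe sets (-0.65, adjusted p = 0.0473) and without the day 14 arrays (-0.78, adjusted p = 0.0126). For day 14 against day 1, 0 members were called higher when genes below the median were left out, with the mean of probe sets or with genotype left out. With Xist as a covariate 2 were higher and 1 lower, and with 1 array left out 0 to 3 were higher and 0 to 1 lower. Over these omissions the age difference of Cfap69 ran from -0.00165 (without wildtype day 14) to 0.787, and the slope of Cfap61 from -0.43 (without null day 1) to 1.87, with -0.05 without wildtype day 14. The cause of these changes was not tested. With 1 array per genotype and age, the number of arrays limits the precision.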
